A study of Mus musculus with 9 samples.

Results

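The immediate early genes described here are 8 of the 41128 genes in the expression table, chosen by symbol: the nuclear receptor genes Nr4a1, Nr4a2 and Nr4a3, the zinc finger factor genes Egr1, Egr2 and Egr3, and Ier2 and Zfp36. RNA was sequenced from nuclei of the left ventricle, sorted with an antibody against PCM-1, a protein around the nuclei of cardiomyocytes, from 9 FVB mice aged 12 days. The mutant mice carried Fstl1KO/fl;Tie2-Cre (cKO), so that Fstl1, the gene of a secreted glycoprotein, was removed from cells that express Tie2, which are mainly endothelial and endocardial cells, and was heterozygous elsewhere. The groups were 3 cKO mice with left ventricular volume overload and a stress score of 1 (S1 to S3), 3 unstressed cKO mice (U1 to U3) and 3 control mice (C1 to C3), which the labels call wildtype and the study's text describes as carrying 1 floxed allele without Cre. The study scored stress in these mice by heart weight relative to body weight. The cardiomyocytes themselves were not the target of Tie2-Cre, so Fstl1 in their nuclei is no check of the deletion. It stood at 97.4 to 145 normalized counts in cKO score 1, 69.6 to 125 in unstressed cKO and 95.04 to 124 in control nuclei. The title of U3 reads het_cKO, whereas the genotype given for it matches the rest of the cKO mice.

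Immediate early genes are transcribed within minutes of a stimulus, without the need for new protein, and their RNA is short-lived. Serum response factor with its ternary complex partners, which bind CArG boxes, and CREB, which binds cyclic AMP response elements (CRE), are the classical activators. NR4A proteins are orphan nuclear receptors that bind the NBRE motif, EGR proteins are zinc finger factors that bind GC-rich sites, and ZFP36 (tristetraprolin) promotes the decay of mRNAs with AU-rich elements. In the heart, stretch, adrenergic signalling and pressure load are known triggers of these genes.

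The libraries held 10805513 to 12698502 reads in cKO score 1, 8804295 to 11341764 in unstressed cKO and 8262684 to 12597012 in control mice. Values are normalized counts, reads per gene divided by a size factor of the library. Of the cardiomyocyte markers, Tnnt2, Myh6, Actn2, Ryr2 and Ttn were each above every marker of other cells in every library, and Pcm1 was at 968 to 1491. Summed cardiomyocyte markers came to 2265583 to 3779240, 2733444 to 2909745 and 2655939 to 3553474 normalized counts in cKO score 1, unstressed cKO and control nuclei. Mitochondrial ribosomal RNA took 3.81% of the reads in S2 and 3.84% in U3, against 0.941 to 1.15% in the other 7 libraries. The Y-linked gene Kdm5d was at 841 in S3, 3.42 and 5.41 in S2 and S1, 705 to 893 in unstressed cKO and 0 to 4.73 in control libraries, so genotype and sex cannot be told apart between unstressed cKO and control mice. Of the cKO score 1 libraries only S3 was high in Kdm5d, so stress and sex are also partly confounded between the cKO groups. C1 stood apart from the other control libraries in Xist, an RNA of the inactive X chromosome, with 787 against 27010 in C2 and 37215 in C3. The numbers in the sample titles fall into 2 series, here called A (S1, S2, U1 to U3 and C1) and B (S3, C2 and C3). All unstressed cKO libraries were in A and most control libraries in B, so genotype and series are partly confounded between these groups. Of the cKO libraries only S3 was in B. Within A, S1 and S2 were low and U1 to U3 high in Kdm5d, so stress and sex cannot be told apart there. Each library was taken as 1 mouse, since the titles carry a number each.

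The 8 genes differed widely in level. Per kilobase of exon, a scale on which genes can be compared, Nr4a3, Nr4a1 and Zfp36 were the most abundant in cKO score 1 nuclei, with 306 ± 206, 289 ± 129 and 190 ± 77.5 normalized counts per kilobase (SD, n = 3 as in all groups). In unstressed cKO nuclei the leading values per kilobase were 281 ± 253 for Nr4a1, 152 ± 192 for Nr4a3 and 119 ± 70.6 for Zfp36. In control nuclei they were 114 ± 60.5, 77.3 ± 33.7 and 50.6 ± 30.6 for Nr4a1, Zfp36 and Nr4a3. Egr1, Nr4a2 and Ier2 formed a middle tier of 4.24 to 36.1 per kilobase over the group means, and Egr2 and Egr3 were mostly lower, with 1.42 to 9.37. Per kilobase Egr1 averaged 25.2, 36.1 and 31.6 in cKO score 1, unstressed cKO and control nuclei, Nr4a2 14.4, 9.18 and 19.6, and Ier2 26.9, 4.24 and 10.03. Neighbouring levels in this order differed by less than the larger SD of the pair, except below Zfp36 in cKO score 1 and unstressed cKO nuclei and below Egr1 in unstressed cKO nuclei. All 8 genes passed the filter of at least 10 normalized counts in at least 3 libraries, but Egr2, Egr3 and Ier2 rested on few reads, at most 23, 80 and 84 in any library, whereas Nr4a3 reached 3611.

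**Figure D1:**
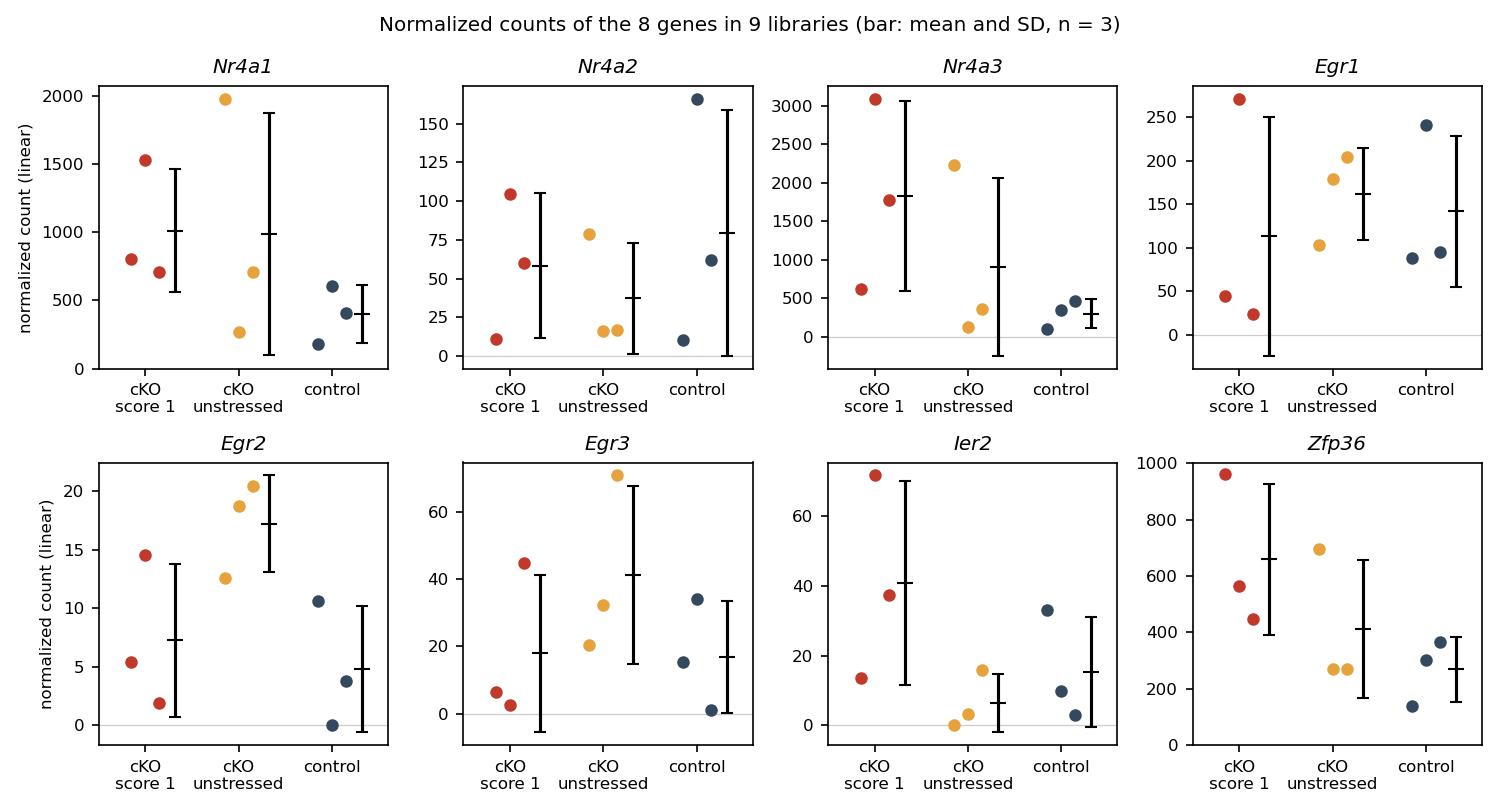
Normalized counts (linear axes, which extend below 0 where an SD bar does) of the 8 genes in 9 libraries, by group, with points in the order of replicates 1 to 3 and bars for the mean and SD of 3 libraries. Nr4a1, Nr4a3 and Zfp36 in cKO score 1 nuclei lie above each control library, and U1 carries most of the unstressed cKO mean of Nr4a1 and Nr4a3.

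Nr4a1, which encodes NUR77, lies on chromosome 15 (101254269 to 101274795, plus strand, mm10, as for all positions). It had 801, 1531 and 706 normalized counts in S1, S2 and S3, 1979, 269 and 709 in U1, U2 and U3, and 183, 607 and 408 in C1, C2 and C3. The 3 cKO score 1 libraries were each higher than each control library, while the unstressed cKO libraries ranged from within the control values to the highest value of all. The log2 fold change of cKO score 1 against control was 1.42 with a 95% interval of 0.31 to 2.52, and it did not pass correction over all genes (limma adjusted p = 0.580).

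Nr4a3, which encodes NOR1, lies on chromosome 4 (48045153 to 48086447, plus strand). Its normalized counts were 623, 3086 and 1778 in S1, S2 and S3, 2229, 135 and 358 in U1, U2 and U3, and 102, 347 and 460 in C1, C2 and C3. As for Nr4a1, cKO score 1 and control values did not overlap, and U1 was far above U2 and U3. Of the 8 genes it had the largest fold change of cKO score 1 against control, 2.57 on the log2 scale (95% interval 1.02 to 4.11, limma adjusted p = 0.474).

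Nr4a2, which encodes NURR1, lies on chromosome 2 (57106830 to 57124003, minus strand). It had 10.8, 104 and 59.9 normalized counts in S1, S2 and S3, 78.8, 16.2 and 16.9 in U1, U2 and U3, and 10.6, 166 and 61.8 in C1, C2 and C3. Its highest value was in a control library and the 3 groups overlapped. The log2 fold change of cKO score 1 against control was -0.23 (95% interval -2.18 to 1.72).

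Promoters of the NR4A genes and of Egr2 are shown because CRE and CArG motifs are the classical response elements of this class. RefSeq promoter windows (GRCm38.p6, 250 bases before a transcript start) were found for 5 of the 8 genes, with 1 window each for Nr4a1, Nr4a2, Nr4a3 and Zfp36 and 5 for Egr2, of which the third is shown. Each sequence is given 5′ to 3′ on the strand of its gene and cut to bases outside annotated exons, which leaves 98 bases for Nr4a3 and none for Zfp36. Capitals mark matches, on either strand, to the core of the CRE, TGACG, the full CRE TGACGTCA, which contains it, the EGR site GCGNGGGCG, the NBRE AAAGGTCA and the CArG box.
Nr4a1, chr15:101266596-101266845, plus strand: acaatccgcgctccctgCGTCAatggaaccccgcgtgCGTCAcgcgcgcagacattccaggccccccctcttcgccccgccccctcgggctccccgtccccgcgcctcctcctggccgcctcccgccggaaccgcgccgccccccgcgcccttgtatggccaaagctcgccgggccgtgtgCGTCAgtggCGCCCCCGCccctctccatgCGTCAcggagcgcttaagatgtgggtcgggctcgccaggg
Nr4a2, chr2:57124004-57124253, minus strand: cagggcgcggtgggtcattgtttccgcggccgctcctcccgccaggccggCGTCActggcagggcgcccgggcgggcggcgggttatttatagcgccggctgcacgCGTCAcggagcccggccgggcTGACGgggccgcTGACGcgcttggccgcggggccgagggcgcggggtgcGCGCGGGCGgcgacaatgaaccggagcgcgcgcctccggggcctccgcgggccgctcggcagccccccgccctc
Nr4a3, chr4:48045055-48045152, plus strand: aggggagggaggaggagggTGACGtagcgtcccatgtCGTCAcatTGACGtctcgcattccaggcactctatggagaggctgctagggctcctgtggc
Egr2, chr10:67537619-67537868, plus strand: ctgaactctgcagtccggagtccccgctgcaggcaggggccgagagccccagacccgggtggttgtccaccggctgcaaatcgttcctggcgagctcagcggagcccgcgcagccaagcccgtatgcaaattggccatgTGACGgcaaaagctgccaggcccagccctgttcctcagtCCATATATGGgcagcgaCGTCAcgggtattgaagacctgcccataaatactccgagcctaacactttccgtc
The windows of the 3 NR4A genes each held 4 CRE cores, 3 of them within the stretch shown for Nr4a3, whereas 17.8% of the 32851 promoters in the same table held at least 1 and 0.137% held 4 or more. The EGR site occurred once in the windows of Nr4a1, Nr4a2 and Zfp36, against 4.70% of all promoters. A CArG box occurred in the windows of Egr2 shown here and of Zfp36, against 1.47% of all promoters. Neither the full CRE (1.55% of promoters) nor the NBRE (1.34%) was found in any of these windows. The windows of Nr4a1, Nr4a2 and Nr4a3 had 74.4%, 80% and 63.6% G and C, and the shares over all promoters were not matched for this. These matches describe the letters only and are no evidence of binding.

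Egr1, the best studied gene of its family, which encodes a factor induced by growth signals, lies on chromosome 18 (34859823 to 34864984, plus strand). It had 44.2, 271 and 24.4 normalized counts in S1, S2 and S3, 103, 179 and 204 in U1, U2 and U3, and 88.6, 241 and 95.04 in C1, C2 and C3. The lowest pair of values, S1 and S3, and the highest, S2, were in the same group. Egr1 was the only member besides Nr4a2 with a negative log2 fold change of cKO score 1 against control, -0.91 (95% interval -2.28 to 0.45, limma adjusted p = 0.792). That value was -1.92 without S2, -0.20 without S3 and -0.45 without C2.

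Egr2, known for its role in Schwann cells and lymphocytes, lies on chromosome 10 (67535475 to 67542188, plus strand). Its normalized counts were 5.41, 14.5 and 1.87 in S1, S2 and S3, 12.6, 18.7 and 20.4 in U1, U2 and U3, and 10.6, 0 and 3.80 in C1, C2 and C3. A count of 0 in C2 allows up to 3 reads, or 2.69 normalized counts, by counting error alone. The unstressed cKO libraries were each above each control library, by little between U1 and C1.

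Egr3 lies on chromosome 14 (70077203 to 70082614, plus strand) and encodes a factor known from muscle spindles and lymphocytes. It had 6.31, 2.56 and 44.96 normalized counts in S1, S2 and S3, 20.5, 32.3 and 71.0 in U1, U2 and U3, and 15.4, 34.1 and 0.950 in C1, C2 and C3. The 3 groups overlapped, and the log2 fold change of cKO score 1 against control was 0.03 (95% interval -2.26 to 2.33).

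Ier2, a gene without introns whose product is nuclear, lies on chromosome 8 (84661331 to 84662852, minus strand). Its normalized counts were 13.5, 71.8 and 37.5 in S1, S2 and S3, 0, 3.40 and 16.0 in U1, U2 and U3, and 33.1, 9.87 and 2.85 in C1, C2 and C3. The 0 in U1 allows up to 3 reads, or 3.42 normalized counts. Over the 9 libraries its SD of log2 values was 1.93, at the 98.2nd percentile of the genes tested and the highest of the 8 genes, where the median gene had 0.62. Its mean log2 level was only at the 12.7th percentile, and the SD was not set against genes of like level.

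Zfp36 lies on chromosome 7 (28376784 to 28380253, minus strand) and overlaps the antisense gene Gm44710. Whether counting used strand was not given in the sources used here, so reads of the pair cannot be told apart. It had 962, 566 and 449 normalized counts in S1, S2 and S3, 695, 270 and 272 in U1, U2 and U3, and 138, 301 and 365 in C1, C2 and C3. Values in cKO score 1 nuclei were all above those in control nuclei, and U2 and U3 were within the control range. The log2 fold change was 1.33 (95% interval 0.48 to 2.19, limma adjusted p = 0.474). Its spread over the 9 libraries was the smallest of the 8 genes, with an SD of 0.84 on the log2 scale (66.8th percentile). Its mean log2 level was at the 81.1st percentile.

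The first comparison set cKO score 1 against control nuclei, which differ in genotype as well as in stress. Stress and genotype therefore cannot be told apart in it. Between cKO score 1 and control nuclei, limma called 0 of the 8 genes at an adjusted p of 0.05, and 0% of the 13454 genes tested. At an unadjusted p under 0.05 it gave 3 of the 8 genes, Nr4a1, Nr4a3 and Zfp36, all higher in cKO score 1, and 1032 genes (7.67%) in all. edgeR also called 0 genes (1057 at an unadjusted p under 0.05), and DESeq2 called 29, none of them among the 8, with adjusted p of 0.155 for Nr4a1, 0.190 for Nr4a3 and 0.155 for Zfp36. The values of both groups did not overlap for the same 3 genes, and for 11.1% of all genes tested. The median log2 fold change was 1.06 over the 8 genes and -0.01 over all genes tested.

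Both title series had the same direction for these 3 genes, but with different sizes. In series A, with C1 as its only control library, the log2 differences were 2.59, 3.76 and 2.41 for Nr4a1, Nr4a3 and Zfp36, against 0.50, 2.15 and 0.43 in series B, with S3 as its only cKO score 1 library. Without C1 the log2 fold changes were 0.94 for Nr4a1, 1.91 for Nr4a3 and 0.91 for Zfp36, and leaving out S2 gave 1.07, 2.05 and 1.40. The unadjusted limma p of Nr4a1 was above 0.05 in both cases, and those of Nr4a3 and Zfp36 were below it. For the other 5 genes the direction differed between the series. The differences in A and B were 1.60 and -0.75 for Nr4a2, 0.31 and -2.59 for Egr1, -0.22 and 0.39 for Egr2, -1.68 and 2.47 for Egr3, and -0.07 and 2.57 for Ier2.

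Markers of other cells were set beside these values. All 6 endothelial markers had a positive log2 fold change of cKO score 1 against control, with a median of 0.25, 1 of them at an unadjusted p under 0.05 (Cdh5, 0.73). All 6 cardiomyocyte markers had a negative one, with a median of -0.12 and 1 at an unadjusted p under 0.05 (Ryr2, -0.46), and so had the 3 leukocyte markers tested, with a median of -0.67 and 1 at that p (Cd68, -1.41). Of the 6 fibroblast markers 2 were higher, with 1 at that p (Col1a1, 0.53), and of the 5 smooth muscle and pericyte markers 2 were higher, with 1 lower at that p (Acta2, -0.85). The summed level of the endothelial markers was 906 to 1095 normalized counts in cKO score 1, 682 to 1024 in unstressed cKO and 710 to 792 in control nuclei, with no overlap between cKO score 1 and control. Summed fibroblast markers (6 of 6 measured) came to 1359 to 2127, 1565 to 2102 and 1484 to 1523, and smooth muscle and pericyte markers (5 of 5) to 2414 to 6101, 5518 to 7575 and 4331 to 6193, in the same order of groups. No marker of these 3 lists was at 0 in any library. Of the leukocyte markers 5 of 6 were found, and their sums were 106 to 120, 159 to 179 and 128 to 252, also without overlap between cKO score 1 and control, with Cd3e at 0 in S3, U1, C2 and C3. Erythroid markers summed to 47.8 to 109, 44.4 to 90.2 and 12.6 to 98.8, and Hba-a2 was at 0 in all 9 libraries. The part of these cells in the values of the 8 genes was not tested, and in such sorted pools more RNA per nucleus cannot be told apart from more nuclei of a kind.

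**Figure D2:**
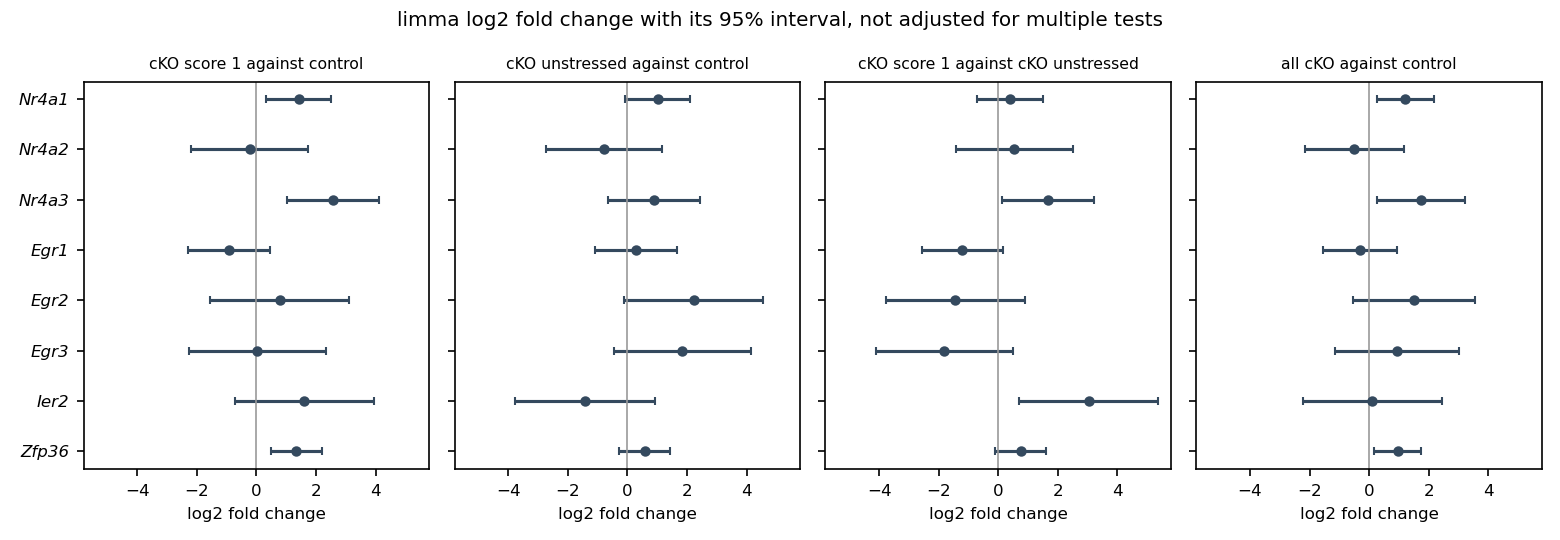
limma log2 fold changes (x axes) of the 8 genes in 4 comparisons, with 95% intervals that are not adjusted for multiple tests. Intervals above 0 belong to Nr4a1, Nr4a3 and Zfp36 in cKO score 1 and in all cKO against control, and to Nr4a3 and Ier2 in cKO score 1 against unstressed cKO.

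The second comparison asked whether the genotype moved the genes without stress. Between unstressed cKO and control nuclei, limma called 0 of the 8 genes and 0% of 13454, with 0 of the 8 and 561 genes (4.17%) at an unadjusted p under 0.05. edgeR called 0 genes as well (566 at an unadjusted p under 0.05), and DESeq2 called 9, none of the 8. Kdm5d, at 705 to 893 in unstressed cKO and 0 to 4.73 in control libraries, was not called by limma. The spread in this fit was shared with the cKO score 1 libraries, where Kdm5d was at 5.41, 3.42 and 841 in S1, S2 and S3. The study, with DESeq2, reported Kdm5d as significantly higher in unstressed cKO mice. The 0% therefore does not show that no gene differed. Values did not overlap for 1 of the 8 genes, Egr2, against 10.5% of all genes, and its log2 fold change was 2.23 (95% interval -0.11 to 4.56, limma adjusted p = 0.9995). Without C2, where it had no read, that was 1.26. Nr4a1 and Nr4a3 had log2 fold changes of 1.02 and 0.91, which were 0.29 and -0.20 without U1, 1.73 and 1.81 without U2, and 0.54 and 0.25 without C1. Ier2 was the member with the lowest value, -1.42 (95% interval -3.76 to 0.93), which was -0.38 without U1, -0.62 without C1, -2.42 without U3 and -2.19 without C3.

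The third comparison set both groups of cKO mice against each other. limma called 0 of the 8 genes and 0% of 13454 between cKO score 1 and unstressed cKO nuclei. At an unadjusted p under 0.05 there were 2 of the 8, Ier2 and Nr4a3, and 853 genes (6.34%) in all. edgeR called 0 genes (870 at an unadjusted p under 0.05) and DESeq2 called 27, none of the 8. Ier2 had a log2 fold change of 3.03 (95% interval 0.68 to 5.38, limma adjusted p = 0.750) and Nr4a3 of 1.66 (95% interval 0.12 to 3.20, limma adjusted p = 0.772). Without U1, where it had no read, the value of Ier2 was 1.99, and its unadjusted p was above 0.05 without U1 or without S2. The value of Nr4a3 was 0.75 without U2 and 2.77 without U1, and its unadjusted p was above 0.05 without any 1 of S2, S3, U2 and U3. In series A alone, where stress and sex cannot be told apart, the log2 differences were 2.95 for Ier2 and 1.54 for Nr4a3. The EGR genes had negative log2 fold changes, -1.21 for Egr1, -1.44 for Egr2 and -1.81 for Egr3, each with an interval that included 0. Without S2 they were -2.21, -2.06 and -1.02 in that order of genes, and without S3 -0.50, -0.84 and -2.87. None of the 8 genes had values that did not overlap, against 11.3% of all genes.

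All 6 cKO libraries were also set against the 3 control libraries. Of the 8 genes 0 were called by limma, and 0% of 13454. At an unadjusted p under 0.05 there were 3, with log2 fold changes of 1.22 for Nr4a1, 1.74 for Nr4a3 and 0.95 for Zfp36, limma adjusted p of 0.891 each, and 706 genes (5.25%) in all. edgeR called 0 genes (745 at an unadjusted p under 0.05) and DESeq2 called 35, none of the 8. Without C1 the 3 values were 0.74, 1.08 and 0.54, and 0 of the 8 genes had an unadjusted p under 0.05. For Nr4a3 this p was also above 0.05 without S2 or without S3. No member separated the cKO from the control libraries, as 2.51% of all genes did. The 4 comparisons share libraries, so their values are not independent of each other.

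Nr4a1 and Nr4a3 varied together over the 9 libraries. Their log2 values had a Pearson r of 0.905 (exact permutation p = 0.00134, adjusted p = 0.0376 over the 28 pairs of the 8 genes, Benjamini-Hochberg) and a Spearman rho of 0.867 (exact permutation p = 0.00451, adjusted p = 0.0631). The r was 0.845 without U1 and C1, the libraries farthest from the median of Nr4a1, 0.906 for deviations from the group means and 0.968 in the 6 libraries of series A, and series B held too few libraries for a value. Among the other 13453 genes tested, Nr4a3 ranked 15th by r with Nr4a1. Both genes were high in S2 and U1 and low in C1 and U2.

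Zfp36 followed the pair less closely. Its r with Nr4a1 was 0.794 (exact permutation p = 0.0119, adjusted p = 0.154, rho 0.833 with exact permutation p = 0.00827 and adjusted p = 0.0772), which was 0.573 without U1 and C1, 0.703 for deviations from the group means and 0.810 in series A. With Nr4a3 it had an r of 0.764 (exact permutation p = 0.0165, adjusted p = 0.154) and a rho of 0.867 (exact permutation p = 0.00451, adjusted p = 0.0631), with an r of 0.710 without S2 and U1, 0.576 for deviations from the group means and 0.780 in series A. The other 25 pairs each had an unadjusted p of r above 0.05, and 11 of the 28 pairs had an r above 0. Nr4a2 had an r of 0.60 with Nr4a3, which was 0.841 for deviations from the group means and 0.869 in series A. Egr1 had an r of 0.06 with Nr4a1 and of 0.26 with Egr2, the second of which was 0.893 in series A, and Egr2 had one of -0.02 with Egr3. The r of Ier2 with Nr4a1 was -0.12, but 0.905 without U1 and C1 and -0.40 for deviations from the group means. Ier2 had no read in U1. With Zfp36 its r was -0.19, which was -0.875 for deviations from the group means and -0.26 in series A. All values come from the same 9 libraries and share their size factors.

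**Figure D3:**
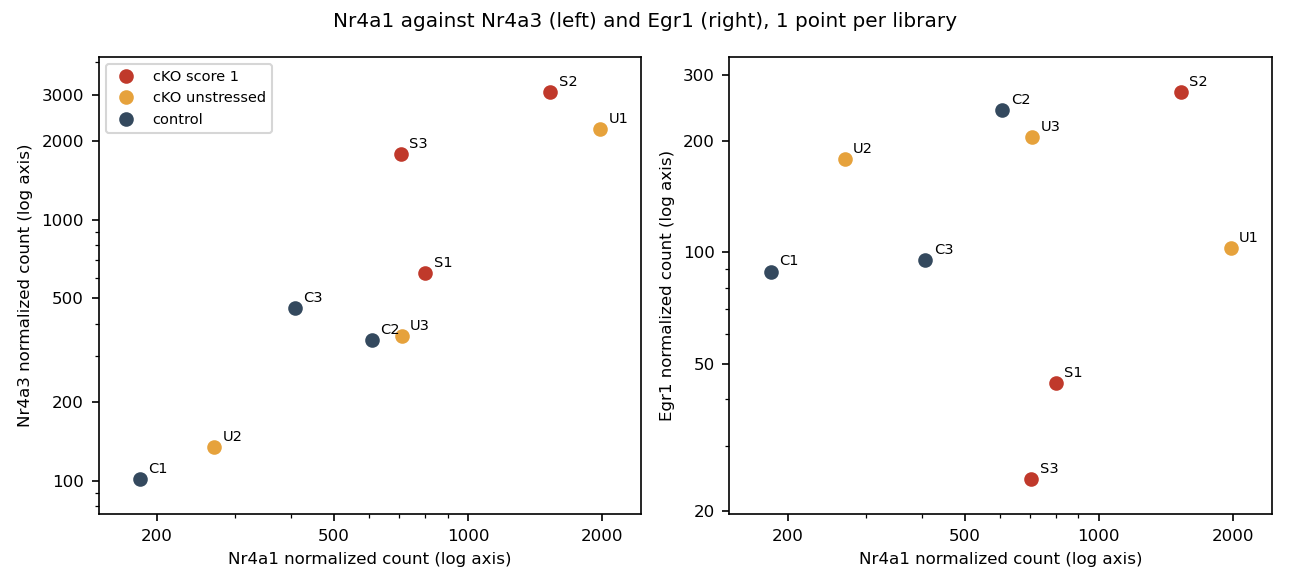
Normalized counts of Nr4a1 (x, log axis) against Nr4a3 (left, y, log axis) and Egr1 (right, y, log axis), 1 point per library coloured by group. The points of Nr4a3 rise with those of Nr4a1 from C1 to S2 and U1 (r = 0.905), and those of Egr1 do not (r = 0.06).

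**Figure D4:**
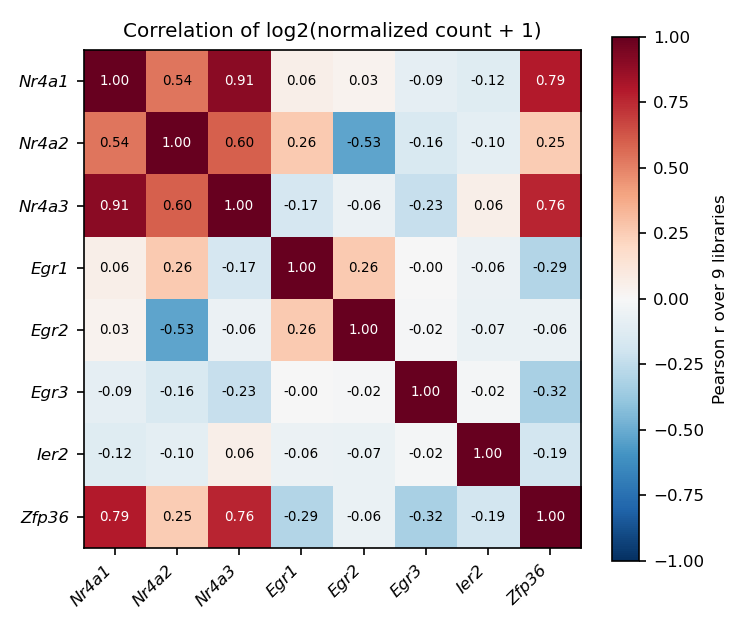
Pearson r of log2(normalized count + 1) over the 9 libraries for each pair of the 8 genes, as colour and number, with 28 pairs in all. The highest values join Nr4a1, Nr4a3 and Zfp36.

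The genes outside the 8 with the pattern most like that of Nr4a1 over the 9 libraries were Etv6 (r = 0.980), an ETS family repressor, Pds5b (0.972), a cohesin regulator, Iqce (0.955), Irf2bp2 (0.930), a transcriptional co-regulator, and Fnbp1 (0.929), a membrane-bending protein. Etv6 had 193, 238 and 168 normalized counts in S1, S2 and S3, 308, 126 and 179 in U1, U2 and U3, and 111, 158 and 144 in C1, C2 and C3. It was thus highest in U1 and lowest in C1, as Nr4a1 was. For Egr1 they included Ntrk3 (r = 0.946), the neurotrophin-3 receptor, Tmem204 (0.929), Gm5801 (0.910) and B3gnt8 (0.908), which had far fewer reads. These genes were taken from the highest of 13454, so their r is a description.

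Other immediate early genes, a list of 36 of which 31 were tested, had a median log2 fold change of 0.71 between cKO score 1 and control nuclei, against -0.01 over all genes. limma called 0 of them, and 0% of all genes tested. At an unadjusted p under 0.05 there were 12, all higher in cKO score 1, against 7.67% of all genes. Myc, a growth factor-induced transcription factor, had the smallest p of the list. It had 609, 377 and 532 normalized counts in S1, S2 and S3, 148, 83.3 and 153 in U1, U2 and U3, and 109, 180 and 149 in C1, C2 and C3. Its cKO score 1 values lay above all other libraries, with log2 fold changes of 1.79 against control (limma adjusted p = 0.199) and 1.996 against unstressed cKO (limma adjusted p = 0.178). The study, which tested with DESeq2, reported Myc as significantly higher in cKO score 1 than in control mice. In U1, where Nr4a1 and Nr4a3 were high, Myc was within the range of the control libraries. Sgk1, a kinase of salt and stress signalling, and Csrnp1, a nuclear factor, had log2 fold changes of 1.86 and 2.08 against control (adjusted p = 0.474 each).

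Between unstressed cKO and control nuclei the same list had a median of 0.24 with 2 genes at an unadjusted p under 0.05, Atf3 (1.33 on the log2 scale) and Maff (1.70), both bZIP factors. Of all genes tested, 4.17% had such a p. Between cKO score 1 and unstressed cKO nuclei the list had a median of 0.40, with 8 genes higher and 1 lower at that p, against 6.34% of all genes. The lower one was Maff, at -1.96, and after Myc the smallest p of a higher gene was that of Trib1, a pseudokinase, at 1.09. Over all cKO against control the median was 0.56, and 6 genes were higher at an unadjusted p under 0.05, against 5.25% of all genes.

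Paralogs of the 8 genes (5 of 7 tested) had a median log2 fold change of 0.75 between cKO score 1 and control nuclei. Wt1, a zinc finger gene related to the EGR genes and known from the epicardium, had 60.4, 139 and 59.0 normalized counts in S1, S2 and S3, 69.6, 51.9 and 24.0 in U1, U2 and U3, and 5.91, 18.8 and 37.1 in C1, C2 and C3. The values of cKO score 1 lay above those of control nuclei, with a log2 fold change of 2.21 (limma adjusted p = 0.474). Of all genes tested, 11.1% had no overlap between these groups, in either direction. Zfp36l2, a relative of Zfp36 with the same class of mRNA targets, had a value of 1.75 (limma adjusted p = 0.598). Zfp36l1 had 0.75, so Zfp36 was not the only gene of its family with a positive value.

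Upstream factors and co-regulators, a list of 21 genes that were all tested, had a median of 0.07 between cKO score 1 and control nuclei. Mef2d, Mef2c and Mkl2, which encode activators of muscle and serum response genes, had the smallest p, with log2 fold changes of 0.65, 0.86 and 0.57 (limma adjusted p of 0.474, 0.493 and 0.580). Mef2d had 6050, 6478 and 5431 normalized counts in S1, S2 and S3, 6683, 4562 and 5529 in U1, U2 and U3, and 4543, 3484 and 3501 in C1, C2 and C3. All cKO libraries were above the control libraries for Mef2d, the closest pair being U2 and C1. Of all genes tested, 2.51% had no overlap between these libraries, in either direction. Elk3, a ternary complex factor, had a log2 fold change of 1.30 in unstressed cKO against control nuclei and of -1.06 in cKO score 1 against unstressed cKO nuclei.

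Genes of glucose use that Nr4a1 is known to control in mouse skeletal muscle (7 of 8 tested) had a median of -0.06 between cKO score 1 and control nuclei, and none had an unadjusted p under 0.05. Between cKO score 1 and unstressed cKO nuclei all 7 had a negative log2 fold change, with a median of -0.38. At an unadjusted p under 0.05 there were 2, against 6.34% of all genes. The 2 were Eno3, the muscle enolase, at -0.99 (limma adjusted p = 0.729), and Phka1, a phosphorylase kinase subunit, at -0.77 (limma adjusted p = 0.750). Eno3 had 1534, 2539 and 1996 normalized counts in S1, S2 and S3, 2547, 3931 and 6105 in U1, U2 and U3, and 3577, 2692 and 1412 in C1, C2 and C3. Among mRNAs bound by ZFP36, 3 of 8 were tested, with a median of -0.28 between cKO score 1 and control nuclei and none at an unadjusted p under 0.05. Vegfa, the most abundant of them, had a value of 0.21 (95% interval -0.20 to 0.62).

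**Figure D5:**
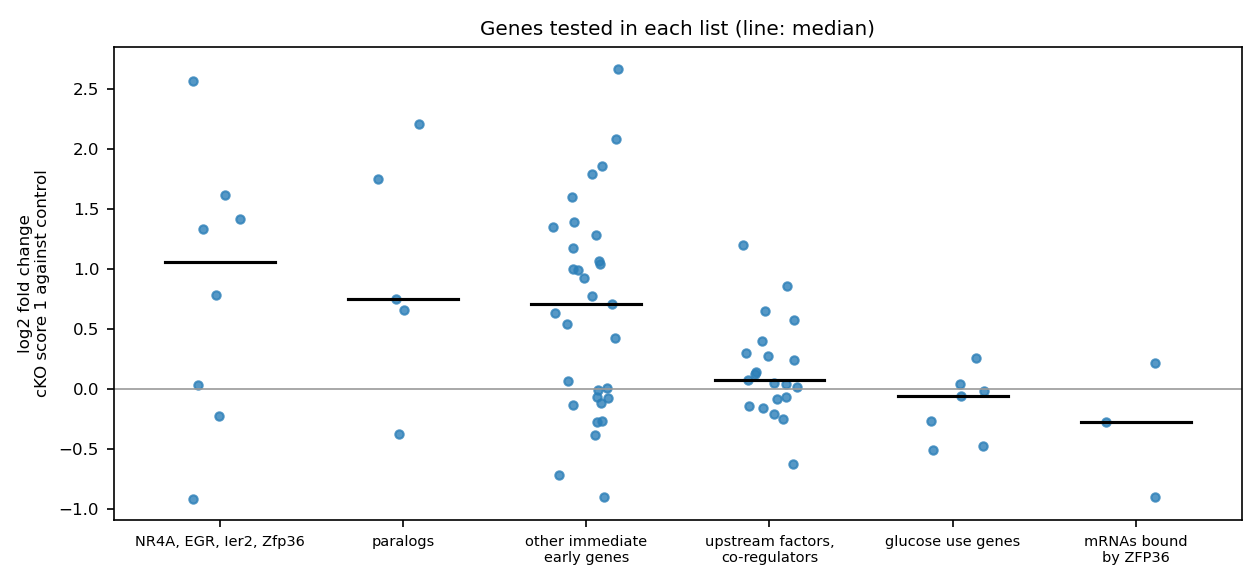
limma log2 fold changes of cKO score 1 against control (y axis) for the tested genes of 6 lists (x axis), each point 1 gene with sideways scatter for legibility and each line the median of its list. The medians are 1.06 for the 8 genes, 0.75 for their paralogs, 0.71 for other immediate early genes, 0.07 for upstream factors, -0.06 for glucose use genes and -0.28 for mRNAs bound by ZFP36.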

How the data were processed

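Nuclear RNA of PCM-1-positive left ventricle nuclei was sequenced from 9 mice as single-end reads after amplification with the Ovation RNA-seq V2 kit. Per the labels and methods, the authors aligned with STAR against mm10 and normalized with DESeq2. Tool versions, annotation, counting program and strand use were not given in the sources used here. Deposited values are a signal per gene: read counts divided by 1 size factor per library. All values above 0 (100%) came out as whole multiples of 1 read (tolerance 0.001), so reads were recovered for the count tests.

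Genes were named from the table and GENCODE M21 (18579 of 19316 without a symbol). limma 3.58.1 in R 4.3.3 tested log2(normalized count + 1), two-sided, with a variance trend, over the 13454 genes of at least 10 in at least 3 libraries, with p-values adjusted by Benjamini-Hochberg and a threshold of 0.05. One fit held the 3 groups (6 degrees of freedom), and all cKO against control was a fit of 2 groups (7). DESeq2 1.42.0 and edgeR 4.0.16 on recovered reads, other pseudocounts, filters and normalizations, a series covariate and leaving out libraries were the alternatives. The tests were first checked on simulated data. The limma p-values and intervals start from the spread between these 3 mice per group, pooled over the groups. limma then moved it towards a trend over all genes tested. For Nr4a1, Nr4a3 and Zfp36 the residual SDs of the fit of 3 groups were 1.03, 1.52 and 0.70. Their intervals in that fit were narrower than this spread alone would give. Floors from reads cover counting error only.

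The 8 genes, the gene lists and the comparison of all cKO with control mice were chosen with earlier results of these data known. Besides the 8, the text names up to 3 genes of the smallest limma p per list and comparison and the 5 genes most correlated with Nr4a1 and Egr1, of which 1 is not reported here. Marker genes, Fstl1, Kdm5d and Xist are named as checks, and Zfp36l1 and Vegfa fall under the same rule. The correlations within groups and the ranks were added after the data were seen.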

Additional observations from a re-analysis of the deposited data

How the results depend on the processing

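None of the 8 genes passed the threshold in any comparison under any alternative, 548 values in all. Of the 32 log2 fold changes, 20 kept their sign throughout, among them those of Nr4a1, Nr4a3 and Zfp36 in cKO score 1 and in all cKO against control, and 12 changed it at least once. With series as a covariate Nr4a2 had 0.43 in cKO score 1 against control, 0.54 in unstressed cKO against control, -0.11 in cKO score 1 against unstressed cKO and 0.46 in all cKO against control, and Egr1 had -0.16 in unstressed cKO against control. A pseudocount of 5 gave -0.049 for Egr3 in cKO score 1 against control, and one of 0.5 gave -0.023 for Ier2 in all cKO against control. Without U3 and S2, the libraries rich in mitochondrial ribosomal RNA, Nr4a2 had -0.46 in cKO score 1 against unstressed cKO and Ier2 -0.68 in all cKO against control. The cause was not tested.

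Leaving out 1 library at a time also changed signs. In cKO score 1 against control the values ran from -1.27 to 0.69 for Nr4a2, -0.18 to 1.59 for Egr2 and -1.17 to 0.91 for Egr3. In unstressed cKO against control they ran from -1.82 to 0.10 for Nr4a2 and -0.20 to 1.81 for Nr4a3. In cKO score 1 against unstressed cKO they ran from -0.31 to 1.12 for Nr4a1 and -0.11 to 1.46 for Nr4a2. In all cKO against control they ran from -1.55 to 0.38 for Nr4a2, -0.59 to 0.15 for Egr1, -0.27 to 1.82 for Egr3 and -0.68 to 0.90 for Ier2.

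Counts of genes called over the whole table were 0 in all 4 comparisons. DESeq2 gave 29 in cKO score 1 against control, 9 in unstressed cKO against control, 27 in cKO score 1 against unstressed cKO and 35 in all cKO against control. With its filtering tuned to 0.05 they were 40, 14, 35 and 36; this was the setting run first, and the planned default of 0.1 replaced it after those counts had been seen. Fitting only the groups compared gave 1 gene in cKO score 1 against control and 4 in unstressed cKO against control, where a pseudocount of 5 gave 3, quantile normalization 3 and the series covariate 4. Without 1 library the counts ran from 0 to 3 in cKO score 1 against control (3 without C1 and 1 without S3) and from 0 to 6 in cKO score 1 against unstressed cKO (6 without S3). No paired analysis was possible because the labels give no replicate numbers shared between groups. Depth limits Egr2, Egr3 and Ier2, and 3 mice per group limit all 8 genes.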
